A study of Homo sapiens with 36 samples.

Results

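The comparison described here is that of HK-2 cells given a low dose of Kbr for 48 h with vehicle-treated cells of the same set at 48 h. HK-2 cells are an established, immortalized line that was derived from the proximal tubule of a human kidney. The samples were chosen by their descriptions, 3 arrays of Kbr at low dose (Kbr-ld-t48h) and 3 of vehicle (Kbr-hd_and_ld-t48h_ctrl), and they make 6 of the 36 arrays of the series. Arrays were paired by replicate number, which gave 3 differences per gene. The other groups used are the high dose of Kbr at 48 h, which was set against the same 3 vehicle arrays, and the low dose and its own vehicle at 24 h, each with 3 arrays. Kbr is the name in the labels and is not spelled out there. The doses are given as low and high with no concentration, and the vehicle is not named. All groups shared mixed DMEM and Ham's F12 medium with epidermal growth factor, hydrocortisone, insulin, transferrin and selenite added, and were treated close to confluency. The labels call the arrays biological replicates and do not say whether separate cultures or passages were used, so that p-values measure the spread between these arrays. HK-2 is 1 immortalized line, and 10 of the 14 proximal tubule markers on the array, the endocytic receptor LRP2 and the transporter SLC34A1 among them, averaged under the background floor of 4 in both groups.

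Several stress programmes are met below. NRF2 is a transcription factor that is held at a low level by KEAP1 until reactive compounds modify KEAP1, and it then drives genes for glutathione supply, thioredoxin recycling and quinone reduction from antioxidant response elements. The unfolded protein response senses misfolded protein in the endoplasmic reticulum, where XBP1 and ATF6 raise chaperones, while the kinase PERK, like other kinases of the integrated stress response, favours translation of ATF4, a factor for amino acid transport and synthesis genes and for DDIT3. Heat shock factor HSF1 raises cytosolic chaperones, and metallothioneins are small zinc- and metal-binding proteins under MTF1.

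Levels are the deposited log2 values, and a difference is low dose minus vehicle on that scale, so that 1 is a 2-fold change. Arrays within the low-dose group correlated across genes at r = 0.984 to 0.991, those within the vehicle group at 0.988 to 0.990, and a low-dose with a vehicle array at 0.954 to 0.973. As a measure of RNA integrity, the beta-actin signal near the 3′ end minus that near the 5′ end averaged 0.98 at low dose and 0.90 in vehicle. It was higher in 3 of 3 pairs, by 0.08 on average (exact permutation test over pairs, two-sided, p = 0.25, the smallest that 3 pairs can give). The low-dose array of replicate 3 stood apart in a part of the response that is described below. Its genes for the endoplasmic reticulum and for ATF4 were closer to vehicle, and results on them are given by pair. Pair 3 was weaker more widely as well. The SD of its differences over all genes was 0.60, against 0.76 and 0.69 in pairs 1 and 2. It was the smallest pair for 72% of NF-kB targets and 65.2% of injury markers, but for 26.3% of heat shock genes, against 46.6% of all genes. Of 8 endothelial and 6 leukocyte markers on the array, 0 were above the floor in either group.

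Low-dose Kbr changed 5933 of 11092 genes at 48 h (53.5%, limma with Benjamini-Hochberg adjustment, threshold 0.05). Of these, 2991 rose (27% of the genes tested) and 2942 fell (26.5%). The median difference over all genes was 0.00, and the median size of the called differences was 0.62. A change of at least 2-fold was found for 1156 genes (10.4%), of which 456 rose (4.11%) and 700 fell (6.31%). The 3 low-dose values lay entirely above or below the 3 vehicle values for 48.6% of genes, and the 3 pairs had the same sign for 70.7%. So many genes passed that a list is read here against those shares and not by its count alone.

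**Figure D1:**
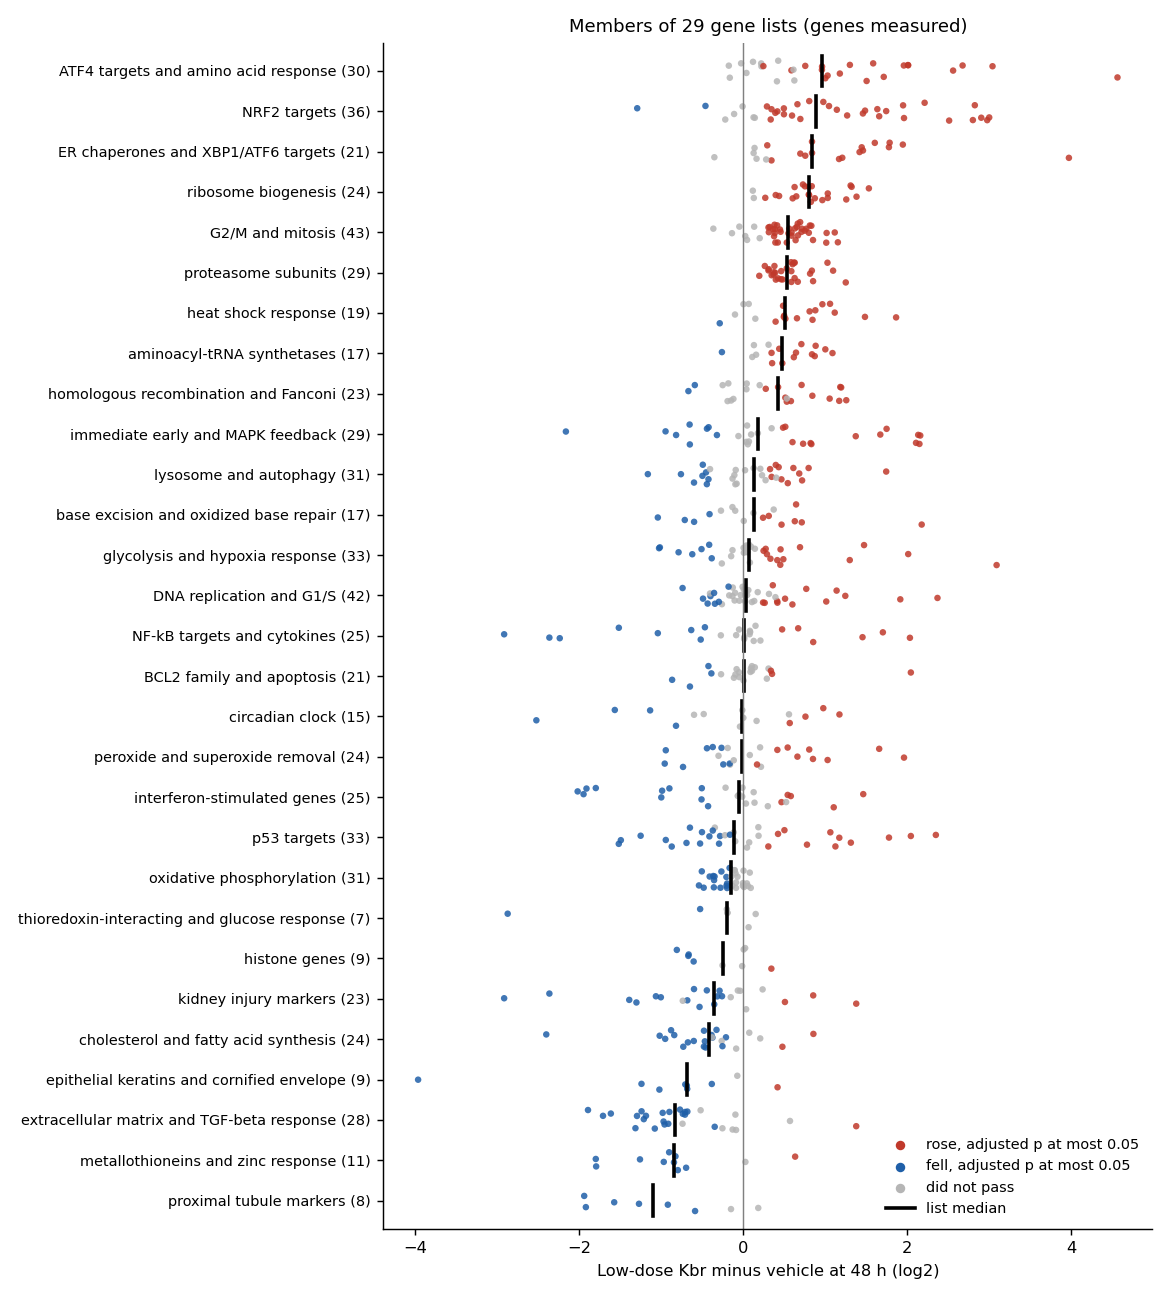
Differences between low-dose Kbr and vehicle at 48 h (x axis, log2) for the measured members of 29 gene lists, 1 point a gene, coloured by whether it passed the test; bars are list medians and numbers in brackets are genes measured. The lists of ATF4 targets, NRF2 targets and ER chaperones had the highest medians (0.96, 0.89 and 0.84), and proximal tubule markers had the lowest (-1.09).

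NRF2 targets were higher in low-dose cells. Of 36 measured members of the list, 29 rose (80.6%, against 27% of all genes) and 2 fell, with a median difference of 0.89. HMOX1, haem oxygenase, measured 7.22, 7.36 and 7.98 in vehicle replicates 1 to 3 and 10.78, 9.98 and 10.51 at low dose. That is a difference of 2.90 ± 0.15 (SE of the model, 3 pairs, adjusted p = 9.1e-13), or 7.47-fold, with no overlap between the groups. NQO1, a quinone reductase, rose from 10.31, 10.43 and 10.59 to 13.41, 13.27 and 13.05, a difference of 2.80 ± 0.11 (adjusted p = 3.2e-15). For TXNRD1, thioredoxin reductase, the vehicle arrays lay at 11.59, 11.71 and 11.55 and the low-dose arrays at 13.72, 13.69 and 13.32, which makes 1.96 ± 0.07 (adjusted p = 7.6e-16). NQO1 was higher by 3.09, 2.84 and 2.46 in pairs 1 to 3, and HMOX1 less evenly by 3.56, 2.61 and 2.53.

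Glutathione supply was part of it. GCLM, the modifier subunit of the enzyme that starts glutathione synthesis, measured 9.24, 9.08 and 9.77 in vehicle and 11.78, 11.75 and 12.10 at low dose, a 5.69-fold rise (2.51 ± 0.13, adjusted p = 8.3e-13). SLC7A11, the transporter that imports cystine in exchange for glutamate, rose by 3.00 ± 0.34 (adjusted p = 1.2e-07), with pairs of 2.62, 3.88 and 2.49. SLC7A5, a transporter of large neutral amino acids that the list shares with ATF4 biology, rose by 2.97 ± 0.40, and its vehicle values were uneven at 8.33, 5.64 and 6.49. SRXN1, which repairs overoxidized peroxiredoxins, rose by 1.66 ± 0.12. TRIM16, a tripartite-motif protein, rose by 2.82 ± 0.14 with pairs of 3.15, 2.72 and 2.59, and SQSTM1, the autophagy receptor p62, rose by 1.74 ± 0.11. The members that fell were the efflux pumps ABCC3 (-1.29) and ABCC4 (-0.46), named after their values were seen. PGD of the pentose phosphate pathway (-0.11, adjusted p = 0.23) and the carbonyl reductase CBR3 (-0.01, adjusted p = 0.98) did not pass.

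Promoters were read because the members moved together. The antioxidant response element core TGACNNNGC was searched on both strands in the 250 bases before the start of each gene (RefSeq promoters, GRCh38.p14). Here and below, a list gene counted if any of its promoter entries held the motif. The share over all promoters counts single entries, so the shares differ in unit. Of the 36 members, 27 had an entry and 7 held the core (25.9%), against 3830 of 35116 promoters (10.9%). Of these 7 members 5 rose and 1, ABCC4, fell, where 29 of 36 rose in the whole list. The stretches around the core in GCLM and TXNRD1 are printed 5′ to 3′ along the gene with the match in capitals, since these are members with steady rises. The GCLM match reads the core on the other strand, 34 bases before the start (chr1:93909431-93909494, minus strand), and that of TXNRD1 lies 99 bases before it (chr12:104215650-104215718, plus strand).
GCLM: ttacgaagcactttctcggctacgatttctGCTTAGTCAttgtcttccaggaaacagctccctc
TXNRD1: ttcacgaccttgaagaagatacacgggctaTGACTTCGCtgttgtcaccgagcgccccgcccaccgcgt
A match describes the letters and does not show that NRF2 binds there. The lists of targets here and below hold genes known for these factors, so a raised share of a motif is no independent support.

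Endoplasmic reticulum chaperones and targets of XBP1 and ATF6 were the second programme, and here the pairs were unequal. Of 21 members measured, 16 rose (76.2%) and 0 fell (limma, also 0 at an unadjusted p under 0.05), with a median of 0.84. The medians of pairs 1, 2 and 3 were 1.54, 0.86 and 0.12, and for 18 of 21 members (85.7%) the difference was smallest in pair 3, against 46.6% of all genes. SDF2L1, a partner of the chaperone BiP, showed the largest rise of the list. It measured 5.92, 5.98 and 5.99 in vehicle and 11.31, 10.54 and 7.94 at low dose, a mean rise of 3.97 ± 0.50 (15.7-fold, adjusted p = 5.3e-07). Each low-dose array was above each vehicle array, and the array of replicate 3 was the lowest of the treated.

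HSPA5, which encodes BiP itself, went from 13.04, 12.72 and 12.92 to 15.37, 15.02 and 13.64, a difference of 1.78 ± 0.26 (adjusted p = 4.2e-06). HERPUD1, of the machinery that removes misfolded proteins, rose by 1.95 ± 0.39, with pairs of 2.50, 2.52 and 0.81. DNAJB9, a BiP cochaperone, rose by 1.78 ± 0.34, and its pairs were 2.43, 2.38 and 0.52, so that low-dose replicate 3 at 9.45 lay under the vehicle array of replicate 1 at 9.49. The disulfide isomerases PDIA3 (0.28, adjusted p = 0.0505) and PDIA6 (0.16, adjusted p = 0.27) did not pass. With replicate 3 left out, 19 members rose and both isomerases passed (0.53 and 0.35). The count was 10 without replicate 1, and 8 in a fit of the compared groups alone.

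The ER stress response element was searched as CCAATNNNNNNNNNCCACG, a motif chosen after the data had been seen. Of 20 members with a promoter entry, 7 held it (35%), and 6 of the 7 rose, where 16 of 21 rose in the whole list. It stood in 26 of 35116 promoters in all (0.074%). The stretches of HSPA5 (chr9:125241361-125241439, minus strand), XBP1 (chr22:28800573-28800651, minus strand) and CRELD2 (chr22:49918524-49918602, plus strand) show its forms, the last with the element on the other strand. XBP1 and CRELD2, named for this match after their values were seen, rose by 1.17 and 1.21.
HSPA5: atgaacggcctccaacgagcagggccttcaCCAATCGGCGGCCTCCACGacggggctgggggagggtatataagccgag
XBP1: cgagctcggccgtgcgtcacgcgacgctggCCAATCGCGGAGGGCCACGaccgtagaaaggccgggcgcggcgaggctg
CRELD2: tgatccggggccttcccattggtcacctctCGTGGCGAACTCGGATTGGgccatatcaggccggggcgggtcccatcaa

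Targets of ATF4 rose too. In this list 19 of 30 measured members rose (63.3%) and 0 fell (limma, also 0 at an unadjusted p under 0.05), with a median of 0.96 and pair medians of 1.03, 1.29 and 0.55. ATF3, a stress-induced repressor and activator of the same factor family, had the largest rise of all genes tested. It measured 6.71, 5.02 and 4.86 in vehicle and 11.10, 10.73 and 8.44 at low dose, 4.56 ± 0.65 higher (23.6-fold, adjusted p = 2.9e-06). DDIT3, the factor CHOP, was already uneven in vehicle at 10.68, 8.86 and 8.64 and reached 13.31, 13.19 and 10.79, with a difference of 3.04 ± 0.50 (adjusted p = 1.9e-05). The vehicle array of replicate 1 was the highest of the vehicle arrays for both genes.

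Enzymes and transporters of amino acids followed. CTH, which makes cysteine from cystathionine, rose from 8.70, 7.65 and 7.84 to 11.64, 11.30 and 9.26 (2.67 ± 0.37, adjusted p = 1.9e-06). SLC3A2, the chain that pairs with SLC7A11 and SLC7A5, rose by 2.56 ± 0.25 with pairs of 2.75, 2.96 and 1.96. ASNS, asparagine synthetase, rose by 1.30 ± 0.36 (adjusted p = 0.0037), but pair 3 was 0.32 against 1.67 and 1.91 in the others, and without the arrays of replicate 2 it no longer passed (0.99, adjusted p = 0.074). CHAC1, which degrades glutathione, rose by 1.71 ± 0.41, with pairs of 0.18, 2.48 and 2.47, since its vehicle replicate 1 lay at 6.80 and the others at 4.23 or below. VEGFA, the endothelial growth factor, rose by 2.01 ± 0.25. DDIT4, an inhibitor of mTORC1 (-0.16, adjusted p = 0.43), and the serine enzyme PSAT1 (0.22, adjusted p = 0.16) did not pass. When replicate 3 was left out, 25 members rose, PSAT1 among them at 0.39.

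Charging enzymes for tRNA moved with them. Of 17 aminoacyl-tRNA synthetases, 12 rose (70.6%) and VARS1, named after its value was seen, fell by 0.26. That call was lost without replicate 2 or replicate 3, without the replicate block, with the block as a random effect and in the compared groups alone. The median was 0.48, and pair medians were 0.57, 0.55 and 0.25. GARS1, for glycine, rose by 1.09 ± 0.21 with pairs of 1.41, 1.44 and 0.42, and WARS1, for tryptophan, by 1.00 ± 0.20 with pairs of 1.52, 1.23 and 0.25. SARS1, for serine, measured 0.11 (adjusted p = 0.62) and EPRS1, for glutamate and proline, 0.31 (adjusted p = 0.0504), or 0.42 and past the test without replicate 3.

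The amino acid response element TGATGNAA was found in 6 of 25 ATF4-list genes with an entry (24%), against 1104 of 35116 promoters (3.14%). Of the 6 members 4 rose, where 19 of 30 rose in the whole list. The element lies 68 bases before the start of ASNS (chr7:97872439-97872506, minus strand) and, on the other strand, 209 bases before that of CHAC1 (chr15:40953232-40953299, plus strand). These members are shown because their rises were uneven between pairs.
ASNS: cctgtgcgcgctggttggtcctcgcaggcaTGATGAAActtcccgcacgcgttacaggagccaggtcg
CHAC1: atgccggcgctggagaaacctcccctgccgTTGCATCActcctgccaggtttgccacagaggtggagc

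**Figure D2:**
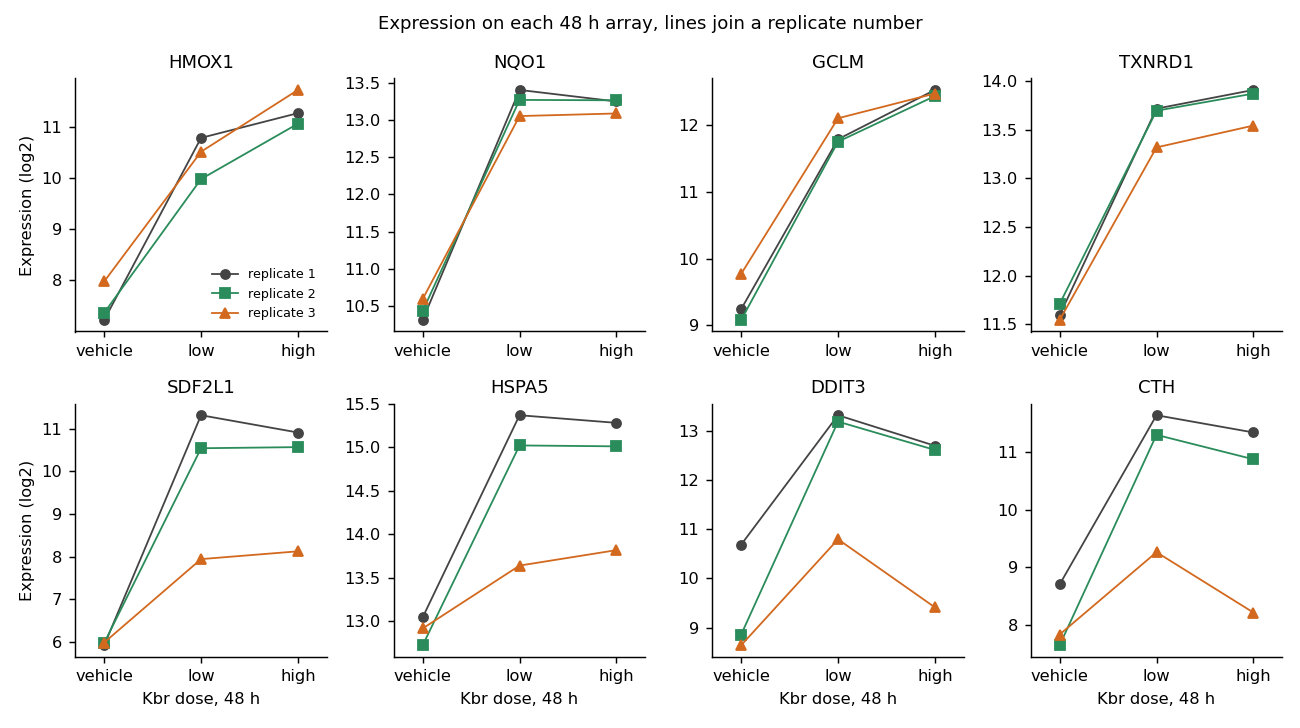
Expression (y axis, log2, a scale of its own in each panel) of 4 NRF2 targets (top) and 4 genes of the ER and ATF4 lists (bottom) on the vehicle, low-dose and high-dose arrays at 48 h, with lines joining arrays of a replicate number. In the top row the 3 low-dose arrays lie closer together, at 13.41, 13.27 and 13.05 for NQO1 and 10.78, 9.98 and 10.51 for HMOX1. In the bottom row replicate 3 lies apart, at 7.94 for SDF2L1 against 11.31 and 10.54.

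The replicate 3 array lay apart at the high dose too, where 7361 genes changed (66.4%) against the same vehicle arrays. The ER list had pair medians of 1.33, 1.09 and 0.04 there, and the ATF4 list 0.70, 1.14 and -0.07. SDF2L1 measured 10.91, 10.57 and 8.13 at high dose, and DDIT3 12.69, 12.61 and 9.41. By contrast, at low dose the pair medians of NRF2 targets were 0.99, 0.91 and 0.81, those of proteasome subunits 0.45, 0.55 and 0.51, and those of metallothioneins -0.96, -0.80 and -0.87. At high dose the median of pair 3 was the smallest in these lists too. NRF2 targets had 1.31, 1.19 and 0.90 there, proteasome subunits 0.70, 0.75 and 0.61, and metallothioneins -1.91, -1.73 and -1.17. Whether culture, exposure or RNA of replicate 3 differed was not tested. The beta-actin 3′ minus 5′ difference of the low-dose array was 0.81 in replicate 3 and 0.94 and 1.19 in replicates 1 and 2.

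**Figure D3:**
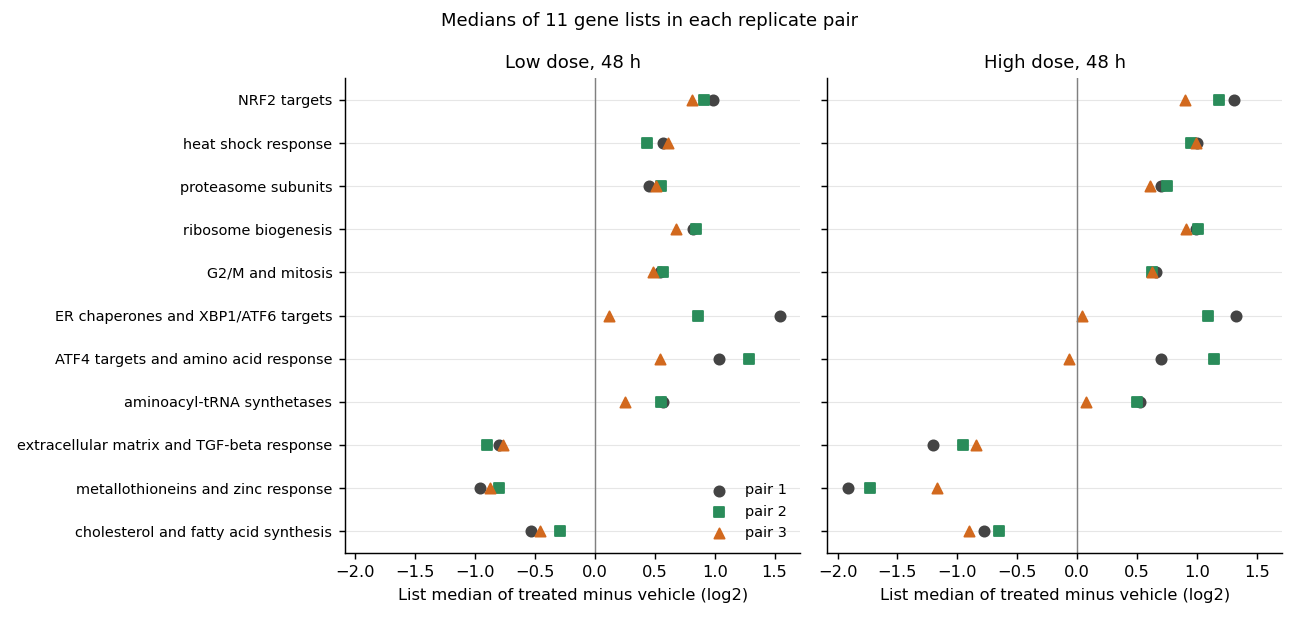
Medians of 11 gene lists (y axis) in each replicate pair at low dose (left) and high dose (right), as treated minus vehicle at 48 h (x axis, log2), both doses against the same vehicle arrays. Pair 3 lies near 0 for the ER list at both doses (0.12 and 0.04) and with the other pairs for NRF2 targets, proteasome, ribosome biogenesis and G2/M genes at low dose.

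Cytosolic chaperones rose to a smaller extent and evenly. In the heat shock list 14 of 19 measured genes rose (73.7%), the median was 0.51 and the pair medians were 0.57, 0.44 and 0.61. CHORDC1, a cochaperone of HSP90, measured 8.60, 8.40 and 8.83 in vehicle and 10.48, 10.23 and 10.72 at low dose (1.86 ± 0.13, adjusted p = 6.1e-11). HSPH1, which exchanges nucleotides on HSP70, rose by 1.48 ± 0.09 with pairs of 1.41, 1.48 and 1.57. DNAJB4, an HSP40 protein, rose by 1.12 ± 0.16. The probe set used for HSPA4 rose by 1.06 ± 0.08, and the 4 probe sets of that gene spanned -0.25 to 1.17. HSF1 itself (-0.10, adjusted p = 0.39) and HSPB1 (0.15, adjusted p = 0.071) did not pass. CRYAB, named after its value was seen, fell by 0.29. That call was lost without replicate 1 or replicate 2, without the replicate block, for the Kbr set alone, for the compared groups alone, with no filter and after median centring. HSP70 genes are near-identical copies, so a probe set for one may read others.

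The heat shock element core GAANNTTC was found in 9 of 16 list genes with an entry (56.2%), against 2030 of 35116 promoters (5.78%). Of the 9 members 6 rose, where 14 of 19 rose in the whole list. CHORDC1 held 3 matches, between 205 and 50 bases before its start (chr11:90223062-90223284, minus strand). The core reads alike on both strands.
CHORDC1: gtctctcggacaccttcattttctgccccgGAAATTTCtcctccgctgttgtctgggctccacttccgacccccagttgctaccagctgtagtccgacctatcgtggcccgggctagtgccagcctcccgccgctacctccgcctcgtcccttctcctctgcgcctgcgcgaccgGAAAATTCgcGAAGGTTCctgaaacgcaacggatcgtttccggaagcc

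Genes for protein turnover and ribosome assembly rose nearly throughout. Of 29 proteasome subunits and regulators measured, 29 rose and 0 fell (limma, also 0 at an unadjusted p under 0.05). Their differences ran from 0.20 to 1.25 with a median of 0.53. PSMD12, a subunit of the regulatory particle, rose by 1.25 ± 0.08 with pairs of 1.27, 1.21 and 1.27, and PSMC4, an ATPase of its base, by 1.10 ± 0.09. PSME4, the activator PA200, rose by 1.03 ± 0.09. In the ribosome biogenesis list 22 of 24 rose (91.7%) and 0 fell (also 0 unadjusted), with a median of 0.80. LYAR, a nucleolar protein, measured 8.14, 8.55 and 8.69 in vehicle and 9.75, 10.10 and 10.13 at low dose (1.53 ± 0.10, adjusted p = 7.5e-11), and the groups did not overlap. BYSL, needed for small-subunit assembly, rose by 1.38 ± 0.10 and the rRNA methyltransferase NOP2 by 1.31 ± 0.12. The abundant nucleolar proteins NPM1 (0.13, adjusted p = 0.062) and FBL (0.12, adjusted p = 0.13) did not pass, though FBL did without replicate 1 (0.18). In the promoters, the antioxidant core stood in 5 of 24 proteasome genes (20.8%, against 10.9% of all), and the E-box CACGTG in 3 of 19 ribosome biogenesis genes (15.8%, against 2228 of 35116, 6.34%).

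Metallothioneins fell. In their list, which adds zinc transporters and MTF1, 9 of 11 fell (81.8%, against 26.5% of all genes), with a median of -0.84. The member that rose was MTF1, named after its value was seen, at 0.63. MT2A measured 14.22, 14.06 and 14.20 in vehicle and 13.41, 13.26 and 13.43 at low dose, a fall of 0.80 ± 0.10 (adjusted p = 4.8e-07). MT1X was lower by 0.96, 0.85 and 0.90 in the pairs, and MT1M fell by 1.79 ± 0.12. MT1 genes are close copies, so a probe set may read more than its named member. SLC30A2, a vesicular zinc transporter, fell by 1.80 ± 0.17, whereas the zinc exporter SLC30A1 lay at 0.03 (adjusted p = 0.80).

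Cell cycle genes did not move as a block. The G2/M and mitosis list had 36 of 43 members that rose (83.7%) and 0 that fell (limma, 1 at an unadjusted p under 0.05), with a median of 0.55 and pair medians of 0.54, 0.57 and 0.48. CCNB1, cyclin B1, rose from 11.31, 11.61 and 11.93 to 12.63, 12.77 and 12.80 (1.12 ± 0.10, adjusted p = 2.1e-09). The mitotic kinesin KIF2C rose by 1.15 ± 0.09 and CDC20, which activates the anaphase-promoting complex, by 1.02 ± 0.12. In the DNA replication and G1/S list 13 of 42 rose (31%) and 8 fell (19%), close to the shares of all genes, and the median was 0.03. The count that fell was 5 without replicate 1 or replicate 2. Within it CDC6, which loads the replicative helicase, rose by 2.37 ± 0.23 with pairs of 3.21, 2.50 and 1.40, and MCM10 by 1.91 ± 0.17. The helicase subunit MCM5 fell by 0.43 ± 0.11, and PCNA (-0.05, adjusted p = 0.80) and RRM2 (0.18, adjusted p = 0.14) did not pass. CDKN1A, the inhibitor p21, rose in the same bulk comparison from 9.26, 8.70 and 9.11 to 10.48, 10.25 and 10.27 (1.31 ± 0.09, adjusted p = 1.4e-10).

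Promoters of G2/M genes carried the CHR letters TTTGAA in 21 of 37 genes with an entry (56.8%, against 4677 of 35116 promoters, 13.3%) and CCAAT in 30 of 37 (81.1%, against 11240 of 35116, 32%). PLK1, a mitotic kinase that rose by 1.01 ± 0.28, is shown as the pattern of the group. It has CCAAT 73 bases and the CHR letters 29 bases before its start (chr16:23678786-23678888, plus strand).
PLK1: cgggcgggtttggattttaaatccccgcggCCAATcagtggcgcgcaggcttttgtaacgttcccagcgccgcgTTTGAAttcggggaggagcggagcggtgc

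Repair genes were mixed. In the base excision list 7 of 17 rose (41.2%) and 4 fell (23.5%), against 27% and 26.5% of all genes. NEIL3, a glycosylase for oxidized bases found in dividing cells, rose by 2.18 ± 0.23 with pairs of 2.27, 2.27 and 1.98, whereas the glycosylase NTHL1 fell by 1.04 ± 0.24 and the scaffold XRCC1 by 0.71 ± 0.14. PARP1 lay at -0.10 (adjusted p = 0.49). APEX2 rose by 0.71 in the probe set used, and its other probe set stood at -0.91. In the homologous recombination and Fanconi list 12 of 23 rose (52.2%) and 2 fell, with a median of 0.43, among them FANCB of the Fanconi core complex (1.26 ± 0.27), the helicase BLM (1.19 ± 0.28) and RAD54B (1.18 ± 0.16).

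Targets of p53 split. Of 33 measured, 11 rose (33.3%, against 27% of all genes) and 14 fell (42.4%, against 26.5%), and the median was -0.12. The rises were large for GDF15, a secreted stress cytokine (2.35 ± 0.17, with pairs of 2.47, 2.81 and 1.77), PMAIP1, the BH3-only protein NOXA (2.04 ± 0.10), and GADD45A (1.78 ± 0.21). These 3 are known to answer to ATF4 as well. MDM2, the ligase that degrades p53, rose by 0.78 ± 0.14. CYFIP2 fell by 1.52 ± 0.12. BAX fell by 0.65 ± 0.23 (adjusted p = 0.019), a call that was lost without the arrays of replicate 1 (adjusted p = 0.0501), 2 (0.063) or 3 (0.13). FAS (-0.35, adjusted p = 0.057) and TNFRSF10B (0.07, adjusted p = 0.59), both death receptors, did not pass, but did without replicate 3 (-0.55 and 0.26). Leaving out replicate 2 left 8 members that fell. In the BCL2 family list, 3 of 21 rose and 4 fell, 14.3% and 19% against 27% and 26.5% of all genes, with 2 lower when replicate 1 or replicate 2 was left out. MCL1, a survival protein, fell by 0.87 ± 0.08.

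Most genes of lipid synthesis were lower. In the cholesterol and fatty acid synthesis list 17 of 24 fell (70.8%) and 2 rose, with a median of -0.42. TM7SF2, a sterol reductase, fell by 2.40 ± 0.17 from 8.50, 8.15 and 8.37 to 6.56, 5.93 and 5.33. The sterol sensor partner INSIG1 fell by 1.02 ± 0.20, LSS, which closes the sterol rings, by 0.95 ± 0.08, and the factor SREBF1 by 0.88 ± 0.16. HMGCS1 (-0.26, adjusted p = 0.11) and IDI1 (0.21, adjusted p = 0.094) did not pass. HMGCS1 passed without low-dose replicate 3 (-0.42) and IDI1 without replicate 1 (0.33). The sterol element TCACNCCAC was found in 1 of 22 list genes with an entry (4.55%, against 310 of 35116 promoters, 0.883%). For oxidative phosphorylation, 15 of 31 genes fell (48.4%) and 0 rose (limma, also 0 at an unadjusted p under 0.05), but the differences were small, with a median of -0.14 and the largest fall at 0.54 (NDUFV1 of complex I). The count was 8 without replicate 1, and 7 in a fit of the compared groups alone, in which 2465 of all genes fell.

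Glycolysis and hypoxia genes were divided, with 13 of 33 higher (39.4%) and 7 lower (21.2%). ADM, the vasodilator peptide adrenomedullin, measured 4.99, 5.95 and 5.85 in vehicle and 8.85, 8.71 and 8.49 at low dose (3.09 ± 0.20, 8.50-fold, adjusted p = 3.0e-11). SLC2A1, the glucose transporter GLUT1, rose by 1.47 ± 0.13 and NDRG1 by 1.30 ± 0.18, with pairs of 1.97, 1.45 and 0.48. LDHA (-0.13, adjusted p = 0.12) and GAPDH (0.04, adjusted p = 0.69) did not pass. A total of 8 members rose with replicate 1 left out. TXNIP, which binds thioredoxin and follows glucose, was lower in low-dose cells. Its vehicle arrays were uneven at 4.16, 6.24 and 6.71, and the low-dose arrays lay at 3.19, 2.69 and 2.63, under the floor of 4, which gives at least 3.26-fold (fitted difference -2.87 ± 0.39, adjusted p = 1.7e-06).

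Genes of the tubular epithelium fell. Of 35 proximal tubule markers, 8 were measured, and 6 of these fell with a median over the 8 of -1.09. CDH6, cadherin 6, measured 12.34, 12.87 and 12.14 in vehicle and 10.63, 11.30 and 10.71 at low dose (a fall of 1.57 ± 0.16, adjusted p = 2.5e-08). Its 6 probe sets spanned -1.81 to 0.00. SLC4A4, the basolateral bicarbonate transporter, fell by 1.27 ± 0.11, SLC3A1, of the cystine and basic amino acid carrier, by 1.92 ± 0.16, and the tight-junction protein CLDN2 by 1.94 ± 0.24. PAX8, the nephron lineage factor, lay at 0.18 (adjusted p = 0.093), or 0.32 and past the test without replicate 1, and its 8 probe sets spanned -0.88 to 0.50. These are bulk cultures, in which fewer cells of a type and less RNA per cell cannot be told apart.

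The injury markers mostly fell, with 14 of 23 lower (60.9%) and 3 higher, or 1 without replicate 1. HAVCR1, the injury protein KIM-1, went from 10.98, 11.17 and 11.27 to 9.78, 10.19 and 10.26, a fall of 1.06 ± 0.12 (adjusted p = 7.0e-08). LCN2, the injury protein NGAL, averaged under the floor in both groups (-0.15, adjusted p = 0.35), and SPP1, osteopontin, lay at 0.04 (adjusted p = 0.67). Among keratin and cornified envelope genes 7 of 9 fell (77.8%, against 26.5% of all genes). SCEL, sciellin, had the largest fall of all genes tested, from 9.51, 9.92 and 9.20 to 6.17, 6.00 and 4.59 (3.96 ± 0.17 lower, 15.6-fold, adjusted p = 4.0e-14). E-cadherin, CDH1, fell by 1.24 ± 0.19 and KRT19 by 1.02 ± 0.07, while KRT18, named after its value was seen, rose by 0.42, a call that was lost in the compared groups alone.

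Extracellular matrix and TGF-beta genes were lower by a median of 0.84, and 20 of 28 fell (71.4%). COL1A1, a fibrillar collagen chain, measured 7.68, 7.79 and 8.02 in vehicle and 6.11, 5.74 and 5.96 at low dose (a fall of 1.89 ± 0.21, adjusted p = 8.6e-08). LTBP2, a latent TGF-beta binding protein, fell by 1.71 ± 0.26. COL12A1 averaged under the floor at low dose and was at least 1.52-fold lower, and its other probe set did not move (0.00). The 1 member that rose was CCN2, connective tissue growth factor, by 1.38 ± 0.13. FN1, at 14.83 in vehicle, did not pass (-0.13, adjusted p = 0.053), and its 7 probe sets spanned -0.36 to 1.17. SKIL lay at -0.09 in the probe set used, and its 3 probe sets spanned -0.09 to 1.21. Of 8 fibroblast markers, DCN, LUM and COL1A1 were above the floor, and the log2 of the summed level of the 8 was 12.1 to 12.2 in vehicle and 10.2 to 10.8 at low dose. PDGFRA, PDGFRB, COL3A1, THY1 and FAP were under the floor in both groups. Their part in the matrix result was not tested.

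Inflammatory genes moved both ways. Of 25 NF-kB targets and cytokines, 6 rose (24%) and 8 fell (32%), near the shares of all genes. VCAM1, an adhesion molecule, went from 6.70, 6.99 and 6.84 to 3.67, 3.90 and 4.21, at least 7.17-fold lower (fitted difference -2.91 ± 0.28, adjusted p = 9.0e-09). The chemokine CCL2 fell by 2.36 ± 0.42 and the complement protein C3 by 2.24 ± 0.13, whereas the chemokine CCL20 rose by 2.03 ± 0.38, with pairs of 3.11, 2.34 and 0.64. NFKBIA, the inhibitor of NF-kB, lay at -0.09 (adjusted p = 0.71). With replicate 1 left out, 3 members rose. In the interferon list 10 of 25 fell (40%) and 5 rose (20%), or 3 without replicate 2. The membrane restriction factors IFITM1, IFITM2 and IFITM3 fell by 2.02 ± 0.14, 1.91 ± 0.15 and 1.80 ± 0.16, and are close copies. IFI44L fell by 1.95 ± 0.26, whereas ISG15 (-0.22, adjusted p = 0.16) and IFIT3 (0.13, adjusted p = 0.33) did not pass.

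Growth-factor response genes leaned upward, with 13 of 29 immediate early and MAPK feedback genes higher (44.8%) and 8 lower (27.6%). DUSP5, a nuclear phosphatase of ERK, rose by 2.16 ± 0.14 with pairs of 2.42, 2.40 and 1.65. HBEGF, a ligand of the EGF receptor, rose by 2.15 ± 0.21. FOSL1, of the AP-1 factors, averaged under the floor in vehicle and was at least 4.20-fold higher. SPRY1, a feedback inhibitor, averaged under the floor at low dose and was at least 2.86-fold lower. Among 15 clock genes 4 rose and 4 fell (26.7% each), near the shares of all genes (27% and 26.5%). The output factor HLF fell by 2.52 ± 0.25 from 8.66, 8.64 and 8.59 to 5.83, 6.02 and 6.48. In the lysosome and autophagy list 11 of 31 rose (35.5%) and 8 fell (25.8%). TFE3, a driver of lysosomal genes, rose by 0.80 ± 0.10, the lysosomal glucosidase GAA fell by 1.16 ± 0.22, and the membrane proteins LAMP1 (-0.09, adjusted p = 0.24) and LAMP2 (-0.11, adjusted p = 0.37) did not pass. Of 24 genes that remove peroxide and superoxide, 9 rose (37.5%) and 8 fell (33.3%), with GPX3, a secreted peroxidase, lower by 0.96 ± 0.11 and SOD2 at 0.08 (adjusted p = 0.71). In that list 4 fell when replicate 2 was left out. Of 9 histone genes 4 fell (44.4%) and 1 rose (11.1%), and H2AJ fell by 0.67 ± 0.15. The count that fell was 2 without replicate 1 or replicate 2.

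Genes outside these lists were also among the largest changes. RGS20, which shortens G protein signals, rose by 3.00 ± 0.28 with pairs of 4.23, 2.81 and 1.97. LURAP1L rose by 2.80 ± 0.33. CLIP4 averaged under the floor in vehicle and was at least 2.70-fold higher. EFEMP1, a fibulin of the extracellular matrix, measured 7.91, 8.11 and 7.83 in vehicle and 3.66, 4.17 and 4.23 at low dose, a fall of 3.93 ± 0.21 (15.2-fold, adjusted p = 3.1e-12). BLNK, an adaptor known from B cells, was at least 7.89-fold lower, ENDOD1 at least 6.97-fold, TNFRSF19 at least 4.86-fold and ALOX5, 5-lipoxygenase, at least 3.13-fold, each averaging under the floor at low dose. ENPP3, an ectonucleotidase, fell by 3.28 ± 0.38. C1RL and CFB, of the complement system, fell by 3.01 ± 0.25 and 3.01 ± 0.22. SLC40A1, the iron exporter ferroportin, fell by 2.93 ± 0.25 with pairs of 3.46, 2.81 and 2.50 below vehicle, and FXYD6, a regulator of the sodium pump, by 2.94 ± 0.24.

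Low-dose effects were set against those at 24 h by a test of the difference itself. Each effect is taken from the vehicle of its own time, so a move of the vehicle level between the times enters the test as well. At 24 h, 2720 genes passed against that time's vehicle (24.5%), of which 1170 rose (10.5%). The effect differed between the times for 1243 genes (11.2%), being more positive at 48 h in 672 (6.06%) and more negative in 571 (5.15%). That count depends on the arrays and the model. It was 482 without the replicate block, 741 for the Kbr arrays alone, 203 without the arrays of replicate 1 and 189 without those of replicate 2.

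NRF2 targets were up at both times. At 24 h 25 of 36 rose (against 10.5% of all genes) with a median of 0.58, and the effect was more positive at 48 h for 16 (against 6.06%). HMOX1 was 2.02 ± 0.15 above vehicle at 24 h, and its effect grew by 0.88 ± 0.21 (adjusted p = 0.0097). NQO1 stood at 1.33 ± 0.11 at 24 h and grew by 1.47 ± 0.15 (adjusted p = 6.4e-06). TXNRD1 and GCLM were up by 1.20 and 1.83 at 24 h. Heat shock genes were as many at 24 h, with 14 of 19 higher, and the effect was more positive at 48 h for 2 of the 19.

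The ER list was different, with 0 of 21 members higher at 24 h (limma, also 0 at an unadjusted p under 0.05) and a median of -0.06. The effect was more positive at 48 h for 10 members (16 at an unadjusted p under 0.05), against 6.06% of all genes. SDF2L1 was at -0.08 ± 0.50 at 24 h (adjusted p = 0.95), and its effect was 4.05 ± 0.70 higher at 48 h (adjusted p = 0.0013). HSPA5 was at 0.18 ± 0.26 at 24 h and grew by 1.60 ± 0.37 (adjusted p = 0.0078). In the ATF4 list 3 of 30 rose at 24 h, near the 10.5% of all genes, and 11 grew. ATF3 was at 0.62 ± 0.65 at 24 h and grew by 3.94 ± 0.92 (adjusted p = 0.0081). DDIT3 was at 0.41 ± 0.50 at 24 h and grew by 2.63 ± 0.70 (adjusted p = 0.019). Neither passed at 24 h, but both were above vehicle in each pair there. The pairs were 0.70, 0.53 and 0.64 for ATF3 and 0.46, 0.39 and 0.38 for DDIT3. The SE rests on a spread per gene that all groups share. ASNS (1.23 ± 0.51, adjusted p = 0.12) and CHAC1 (1.58 ± 0.58, adjusted p = 0.077) did not pass this test.

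Falls against vehicle deepened with time in other genes. For metallothioneins, 6 of 11 were lower at 24 h (against 14% of all genes) with a median of -0.34, and the effect was more negative at 48 h for 7 (against 5.15%). GJA1, the gap junction protein connexin 43, was 0.78 below vehicle at 24 h and 2.82 ± 0.17 below at 48 h, where its arrays lay at 8.52, 9.00 and 9.60 against 11.55, 12.04 and 12.00. Both groups moved between the times. The vehicle mean of GJA1 was 10.98 at 24 h and 11.86 at 48 h, and the low-dose mean 10.19 and 9.04. VCAM1 was already at -2.34 ± 0.28 at 24 h and TXNIP at -2.19 ± 0.39, and neither changed past the test with time (adjusted p = 0.38 and 0.48). Both averaged under the floor of 4 at low dose at 48 h (3.93 and 2.84), so a deeper fall could not be measured.

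**Figure D4:**
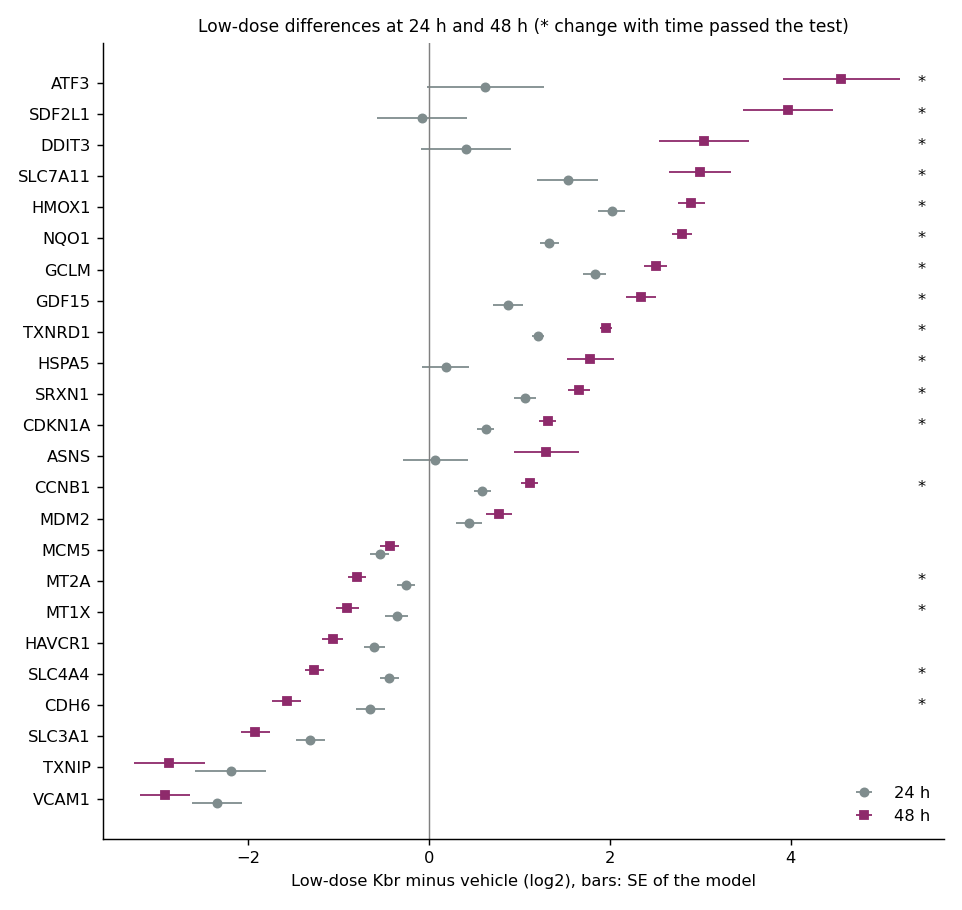
Low-dose minus vehicle differences (x axis, log2, bars the SE of the model) of 24 genes at 24 h and 48 h, each against its own vehicle, with stars where the change with time passed the test. ATF3, DDIT3 and HSPA5 lie at 0.62, 0.41 and 0.18 at 24 h and SDF2L1 just under 0. At 48 h these genes lie between 1.78 and 4.56, whereas HMOX1, NQO1 and GCLM are far above vehicle at both times.

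The high dose was compared with the low dose directly, from arrays of the same time. Of all genes, 3646 differed (32.9%), 1092 higher (9.84%) and 2554 lower (23%) at the high dose. The split depends on scaling, since it was 2183 to 1709 after each array was centred on its median, which moved the median over genes from -0.06 to 0.06, and 1330 to 2152 after quantile normalization. Differences of the doses from vehicle share the vehicle arrays, and the values below are set side by side for description.

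Several stress genes did not pass the test between the 2 doses. NQO1 was 2.80 above vehicle at low dose and 2.76 at high dose, and the 95% interval of the high-minus-low difference was -0.26 to 0.18. SDF2L1 was at 3.97 and 3.90 (interval -1.09 to 0.96), TRIM16 at 2.82 and 2.72 (interval -0.39 to 0.18) and SRXN1 at 1.66 and 1.70 (interval -0.21 to 0.29). The intervals do not show equality, and that of SDF2L1 is wide. Other NRF2 targets were higher at the high dose, HMOX1 by 0.92 ± 0.15 (adjusted p = 4.4e-05) and GCLM by 0.60 ± 0.13. Of the 36 in the list 6 were higher and 5 lower, against 9.84% and 23% of all genes. In the heat shock list 12 of 19 were higher at the high dose, CHORDC1 by 0.89 ± 0.13, and in the proteasome list 11 of 29.

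ATF4 targets were often lower at the high dose than at the low dose. The high dose was lower for 13 of 30 members and higher for 1, against 23% and 9.84% of all genes. For aminoacyl-tRNA synthetases it was lower in 6 of 17 and higher in 0 (limma, 1 at an unadjusted p under 0.05). ASNS was 1.30 above vehicle at low dose and 0.14 at high dose (-1.16 ± 0.36, adjusted p = 0.015). By replicate, ASNS measured 11.71, 11.08 and 9.52 at low dose and 10.61, 10.12 and 8.10 at high dose. CHAC1 was at 1.71 and 0.37 (adjusted p = 0.014). Its replicates measured 6.98, 6.72 and 6.48 at low dose and 6.64, 5.52 and 3.98 at high dose, farthest apart in replicate 3. DDIT4, at -0.16 and -1.05 (adjusted p = 2.6e-04), lay farther from vehicle at the high dose. NUPR1, a stress-induced chromatin protein, averaged under the floor in vehicle, and was at least 1.90-fold higher at low dose and at least 1.03-fold higher at high dose. The doses differed for NUPR1 at an adjusted p of 0.0496, and its fitted low-dose difference of 1.58 was 0.94 without the arrays of replicate 2. ITPKA, an inositol trisphosphate kinase, was at 2.26 and 0.97 (adjusted p = 0.017), and SQSTM1 at 1.74 and 1.44 (adjusted p = 0.039). BAIAP2L2 was at 1.60 and 0.79 in the probe set used, and its other probe set fell by 0.52 at low dose. CHAC1, ITPKA, BAIAP2L2 and, below, H2AC6 were picked by a rule that asked for a larger difference from vehicle at low dose. Their direction between the doses is therefore no separate result. Among falls, TM4SF1, a tetraspan membrane protein, was at -1.35 at low and -0.64 at high dose (adjusted p = 0.0072), and SFN, 14-3-3 sigma, at -0.68 and -0.08 (adjusted p = 2.4e-04). H2AC6, a histone, was at -0.81 and 0.38 (adjusted p = 8.7e-04), and its low-dose call was lost without replicate 2 (adjusted p = 0.064), as without the low-dose array of replicate 3 (0.082) or the vehicle array of replicate 2 (0.074).

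Falls were deeper at the high dose in several other named genes. KRT20 was at -1.39 at low dose and a further -2.61 ± 0.21 at high dose (adjusted p = 5.5e-09), and ORAI3, a calcium channel subunit, was at -1.36 and -3.72. Cholesterol synthesis genes were lower at the high dose for 16 of 24 and higher for 0 (limma, 1 at an unadjusted p under 0.05). Proximal tubule markers were lower for 6 of 8 and metallothioneins for 7 of 11, against 23% of all genes. SCEL and DCLK1 averaged under the floor at the high dose, where they were at least 2.99-fold and 4.34-fold lower than at the low dose. Other genes were higher at the high dose. AKR1B10, an aldo-keto reductase, averaged under the floor in vehicle and at low dose (a difference of 0.13, adjusted p = 0.62), and was at least 1.35-fold higher at the high dose than at the low dose (adjusted p = 3.1e-07). TNFAIP6, a hyaluronan-binding protein, was also under the floor in those groups and at least 4.11-fold higher at the high dose.

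**Figure D5:**
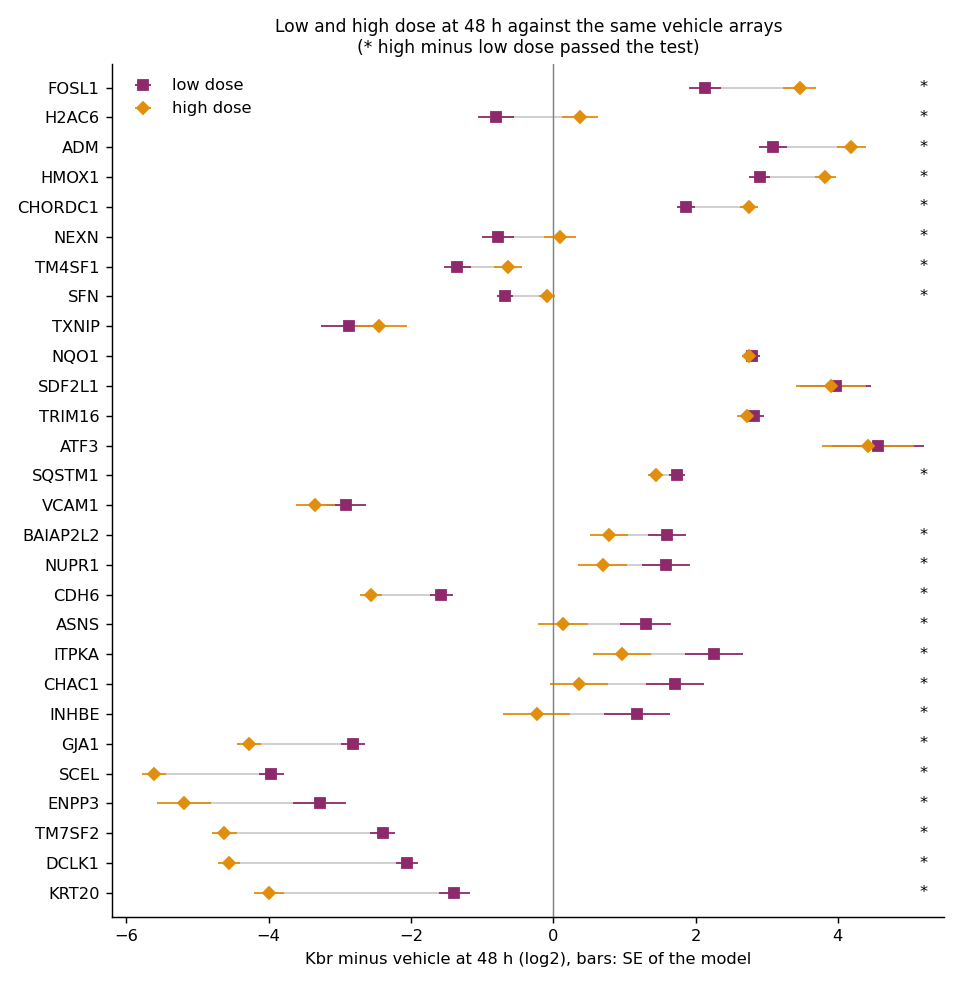
Differences from vehicle at 48 h (x axis, log2, bars the SE of the model) of 28 genes at low dose (squares) and high dose (diamonds), which share the vehicle arrays, ordered by high minus low dose, with stars where that difference passed the test. ASNS, CHAC1, NUPR1 and ITPKA are farther from vehicle at low dose, SCEL, DCLK1 and KRT20 at high dose, and NQO1, SDF2L1 and TRIM16 overlap; fitted values are drawn also where a group averaged under the floor of 4, as for NUPR1 in vehicle and SCEL and DCLK1 at high dose.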

How the data were processed

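The deposited log2 values per probe set were made by the authors with GCRMA (background correction from probe sequence, then normalization across arrays), as the submitters' processing notes give it. A version is not given in the sources used here. Values ran from 0.714 to 16.1, so a floor of background compresses differences of dim genes, and a shift shared by most genes is partly removed. The members and gene lists were chosen with earlier results of these data known.

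Probe sets above 4 on at least 3 of 36 arrays that name 1 gene were kept, and the one with the highest mean over all arrays stood for its gene (11092 genes, 5474 with several probe sets). For a gene averaging below 4 in one group, the fold printed is a lower bound, taken from the other group's mean to the floor of 4. A linear model over the 36 arrays was fitted in limma 3.58.1 (R 4.3.3; lmFit, eBayes, Benjamini-Hochberg over genes) with 12 group means and the replicate number within each of the 2 sets as a block. The numbers pair the Kbr arrays on the data: deviations from group means correlated in all 45 same-number pairs (r = 0.218 to 0.701, median -0.242 for different numbers). The model was tested on simulated data.

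Named genes were 24 index genes, the 12 largest rises and falls with 3 pairs alike, the 4 largest passing and 2 highest other members of each of 29 lists, and the 5 largest each way for time and for dose. Added to these were genes past both the low-dose test and the test between doses that lay farther from vehicle at low dose. The 5 largest rises and the 5 largest falls of that kind were taken. Not every gene the rule allows is named, and a gene outside it is marked as such. Alternatives were other blocks, sample sets, filters, normalizations, array weights, the mean of probe sets, and leaving out arrays.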

Additional observations from a re-analysis of the deposited data

Results flagged for a closer look

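The low-dose effect differed between 48 h and 24 h, by the interaction term of the model, for 24 of the index genes and the genes chosen for their change with time. Other named genes passed this test too and are not listed. It was more positive at 48 h by 4.05 for SDF2L1, 3.94 for ATF3, 2.66 for ITPKA, 2.63 for DDIT3 and 2.28 for INHBE, the last a subunit of activin E. The low-dose call of INHBE at 48 h (1.18 ± 0.47, adjusted p = 0.038) was lost without the replicate block (adjusted p = 0.17) and without the arrays of replicate 1 (1.39, adjusted p = 0.060) or 2 (0.59, adjusted p = 0.40).

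Smaller positive changes were 1.60 for HSPA5, 1.47 for GDF15, 1.47 for NQO1, 1.47 for SLC7A11, 0.88 for HMOX1, 0.76 for TXNRD1, 0.68 for CDKN1A, 0.68 for GCLM, 0.60 for SRXN1 and 0.53 for CCNB1. For CCNB1 the level itself did not rise with time. Its vehicle arrays averaged 12.42 at 24 h and 11.62 at 48 h, and its low-dose arrays 13.01 and 12.73. The effect was more negative at 48 h by -2.82 for BLNK, -2.37 for EFEMP1, -2.12 for FXYD6, -2.04 for GJA1, -2.01 for the antisense RNA SSTR5-AS1, -0.92 for CDH6, -0.83 for SLC4A4, -0.55 for MT1X and -0.54 for MT2A. BLNK and SSTR5-AS1 averaged under the floor of 4 in both groups at 24 h and at low dose at 48 h, so their effect at 24 h was not measurable and the change with time is a fitted value only.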

How the results depend on the processing

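Of 148 named genes past the test of low dose against vehicle at 48 h, 132 kept call and direction under every alternative run. Calls of single genes for time and for high against low dose were not followed through the alternatives. The count of genes changed at low dose was 4661 to 6698 over the alternatives, that of 2-fold changes 1013 to 1436, and that of differences between the doses 2400 to 5051, with 2400 to 3335 when arrays were left out. Without the replicate block, 5212 genes changed, 2638 differed between the doses, and 482 changed with time, and the calls of BCL2, H1-2, INHBE, NEXN and SESN2 were lost. The pairing changed no other low-dose call among the genes chosen by the naming rule, but those of VARS1 and CRYAB, named outside the rule, were also lost without the block. The count for time was also 741 for the Kbr set alone, 567 for the compared groups alone and 2782 with array weights, and 189 to 1679 with arrays left out. Single arrays that moved it by over 1.5 times were low-dose replicates 1 and 2 at 48 h (624, 697) and at 24 h (672, 741), vehicle replicates 1 and 2 at 48 h (665, 766) and vehicle replicate 3 at 24 h (497). The lowest dose count came without the arrays of replicate 2. With the mean of probe sets the sign turned for APEX2 (-0.10), COX4I1 (0.25) and SKIL (0.52). Array weights were 4.11 for low-dose replicate 2 and 0.364 for replicate 3. Causes were not tested. The number of arrays limits precision, and dim probe sets have only bounds.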
